A study of Mus musculus with 6 samples.

Results

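The 10 genes described here encode proteins of the spliceosomal small nuclear ribonucleoproteins (snRNPs), and Snrpn is not among them. They are the 7 genes of the Sm core that these particles share, Snrpb, Snrpd1, Snrpd2, Snrpd3, Snrpe, Snrpf and Snrpg, the genes Snrpa and Snrpc of the U1 snRNP, and the gene Snrpa1 of the U2 snRNP. They were chosen by the gene name in the scanner files. All 10 had at least 1 probe well above background, out of 19194 genes and unnamed features tested. The question was whether their transcripts differ in fat that carries an additional copy of Snrpn.

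The tissue was epididymal white fat, the visceral depot that lies along the epididymis, from 3 patDp/+ mice and 3 wild type mice. The patDp/+ animals carry on their paternal chromosome 7 a duplication of the segment that corresponds to human 15q11-13, and the wild type animals carry none. All 6 were male C57BL/6 mice aged 9 to 10 weeks, and the duplication is inherited and so not limited to fat. Total RNA of each animal was hybridised to its own one-colour (Cy3) Agilent array. The arrays lay on 3 slides with 1 animal of each genotype on each slide, and the replicate number in the labels is also the number of the slide.

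Each spliceosomal snRNP has at its centre a ring of Sm proteins that closes around the U snRNA, and the particles together recognise splice sites and remove introns. SmB, the product of Snrpb, and SmN, the product of Snrpn, are close paralogs that take the same place in the ring. SmN is best known from neurons, where it replaces most of SmB, and its gene is read from the paternal chromosome only. Snrpn is therefore the gene of this family whose active copies the duplication adds to.

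The array reads Snrpn and its relatives through probes of 60 bases, and the sequences below show which stretches stand behind the values of Snrpn, of its paralog Snrpb and of 3 other members. Capitals mark the 2 positions at which the Snrpn probes differ from each other. The probes are written 5′ to 3′, with mm9 positions as the scanner files give them.
Snrpn, brighter probe, chr7:67132330-67132389, minus strand: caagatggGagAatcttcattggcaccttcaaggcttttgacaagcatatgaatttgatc
Snrpn, other probe, chr7:67132347-67132406, minus strand: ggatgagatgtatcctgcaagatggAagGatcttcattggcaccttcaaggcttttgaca
Snrpb, chr2:130001112-130001171, minus strand: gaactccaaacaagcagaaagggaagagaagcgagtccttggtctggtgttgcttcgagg
Snrpd3, dimmer probe, chr10:74995039-74995098, plus strand: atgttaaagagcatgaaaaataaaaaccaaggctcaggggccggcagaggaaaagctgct
Snrpf, brighter probe, chr10:93046231-93046789, minus strand: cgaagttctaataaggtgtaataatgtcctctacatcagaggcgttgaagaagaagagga
Snrpa1, chr7:73214088-73214357, plus strand: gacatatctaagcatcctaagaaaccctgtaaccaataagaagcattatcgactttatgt

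The Snrpn probes overlap by 43 bases, of which 41 are identical. The substitutions, given as the base of the other probe, the position counted from the first base of the overlap, and the base of the brighter probe, are A9G and G12A. Which of the spellings matches the transcript was not analysed here. The Snrpb probe shares no run longer than 7 bases with either Snrpn probe on either strand. That comparison sets probe against probe and cannot show whether a probe also binds the transcript of the paralog. Whether a Snrpn probe matches the Snrpb transcript, or the Snrpb probe the Snrpn transcript, was not tested. The positions of Snrpf and Snrpa1 span more than the length of a probe (559 and 270 bases).

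All values are log2 of the background-subtracted signal minus the 75th percentile of the array, so 0 is the signal of a probe at that percentile. Levels of different probes cannot be set against each other. Fewer cells of a type and less RNA per cell cannot be told apart in whole tissue. Between 63.3% and 71.6% of probes were well above background on an array. All 8 adipocyte markers were measured, and the fatty acid binding protein gene Fabp4 and the adiponectin gene Adipoq were above 8 on this scale on all arrays. Only 1 of the 8, Lep (0.45 ± 0.19, SE), was higher in patDp/+ fat, and 0 had an unadjusted p under 0.05 in limma. As multiples of the 75th percentile the 8 summed to 2117 to 2297 in patDp/+ fat and 2198 to 2630 in wild type fat. Of 8 epididymis and testis markers, Crisp1, Lcn5, Adam7 and Defb2 were too dim on most arrays to be tested. The 4 measured ones were lower in patDp/+ fat, with 0 at an unadjusted p under 0.05 in limma, and summed to 0.194 to 0.253 times the 75th percentile in patDp/+ fat and 0.269 to 0.278 in wild type fat. Of 6 neuronal markers, Snap25, Syt1 and Map2 were too dim. The measured 3 summed to 0.824 to 0.993 in patDp/+ fat and 0.656 to 0.900 in wild type fat, and Syp (0.59 ± 0.22, SE) and Rbfox3 (-0.50 ± 0.12) had an unadjusted p under 0.05 with opposite signs. The summed level of 6 measured T cell markers was 1.17 to 1.35 times the 75th percentile in patDp/+ fat and 0.761 to 0.901 in wild type fat, with 6 of 6 higher. Of these, 3 had an unadjusted p under 0.05, Cd8a (1.35 ± 0.13, SE), Cd8b1 (1.18 ± 0.16) and Cd3d (0.45 ± 0.13). The 6 measured B cell markers went the other way, with 0 of 6 higher, sums of 0.791 to 1.74 in patDp/+ fat and 1.62 to 2.27 in wild type fat, and Cd79b (-0.74 ± 0.28, SE) and Fcer2a (-0.44 ± 0.18) at an unadjusted p under 0.05. All 7 macrophage markers had positive differences, with 0 at an unadjusted p under 0.05 and sums of 47.2 to 69.3 in patDp/+ fat and 46.3 to 51.0 in wild type fat. Of 6 skeletal muscle markers, Ckm and Myh4 were not tested. The measured 4 summed to 3.90 to 7.46 in patDp/+ fat and 1.87 to 2.38 in wild type fat, mostly through the muscle actin gene Acta1. Acta1 (1.30 ± 0.27, SE) alone had an unadjusted p under 0.05, and Myh1, Tnnt3 and Mylpf had 0.24 ± 0.27, 0.01 ± 0.43 and -0.06 ± 0.09 (SE). The 10 markers of cell division summed to 12.2 to 14.5 in patDp/+ fat and 12.6 to 13.6 in wild type fat, with overlapping groups. All 5 mesothelium markers were higher, with sums of 31.0 to 39.5 in patDp/+ fat and 24.9 to 33.5 in wild type fat. The 2 measured red blood cell markers were also higher (197 to 365 and 178 to 275). Both lists had 0 at an unadjusted p under 0.05. The part of these lists in the values below was not tested.

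Snrpn was higher in patDp/+ fat. Its brighter probe read 0.43, 0.77 and 0.61 in patDp/+ replicates 1, 2 and 3, against -0.77, -0.48 and -0.51 in wild type replicates 1, 2 and 3. The genotypes were apart by more than the spread within either of them. The log2 difference was 1.19 ± 0.13 (SE, n = 3 each), or 2.28-fold with a 95% interval of 1.84 to 2.82. The limma p was 7.19e-05 and the adjusted p over all features 0.345, so Snrpn did not pass the threshold after adjustment. The other Snrpn probe differed by 1.21 ± 0.13 (SE), and Snurf, which is read from the same transcript, by 1.15 ± 0.15 (SE). Within slides 1, 2 and 3 Snrpn differed by 1.20, 1.25 and 1.11. The remaining 5 listed genes of the interval (Ndn, Mkrn3, Ube3a, Herc2 and Atp10a) had differences of 0.50 to 1.08, also without overlap between groups.

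None of the 10 snRNP genes showed a difference of that size. Their log2 differences lay between -0.04 (Snrpg) and 0.16 (Snrpa1), with 7 positive and 3 negative (47.3% and 52.7% of all features). Their median was 0.02, beside -0.01 over all features tested. In limma 0 of the 10 passed at an adjusted p of 0.05, where 0% of all features passed, and the smallest adjusted p among them was 0.905 for Snrpa1. At an unadjusted p under 0.05 the count was again 0 of 10, against 5.6% of all features. The groups did not overlap for 1 of the 10, Snrpa1, against 11.1% of all features. Snrpa1 was on the higher side in patDp/+ fat, as were 5.26% of all features, and no member was on the lower side, as were 5.89%. Taken probe by probe, 0 of the 16 tested member probes had an unadjusted p under 0.05 (5.15% of all probes) and the groups did not overlap for 1 (10.4% of all probes). The 95% intervals of all 10 differences in this fit lay between -0.28 and 0.40, and so did not reach the log2 difference of 1 that a doubled level gives. For comparison, the interval lay wholly between -1 and 1 for 91.8% of all features, and wholly between -0.5 and 0.5 for 66.1% of features and for 10 of the 10 members. For Snrpd2 this depends on leaving out 1 wild type spot marked as an outlier. With that spot kept its difference was 0.55 (unadjusted limma p 0.254). In the authors' deposited table it was 0.82 (unadjusted limma p 0.224). As the 95% intervals around these values include 0, they also include 1.

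**Figure D1:**
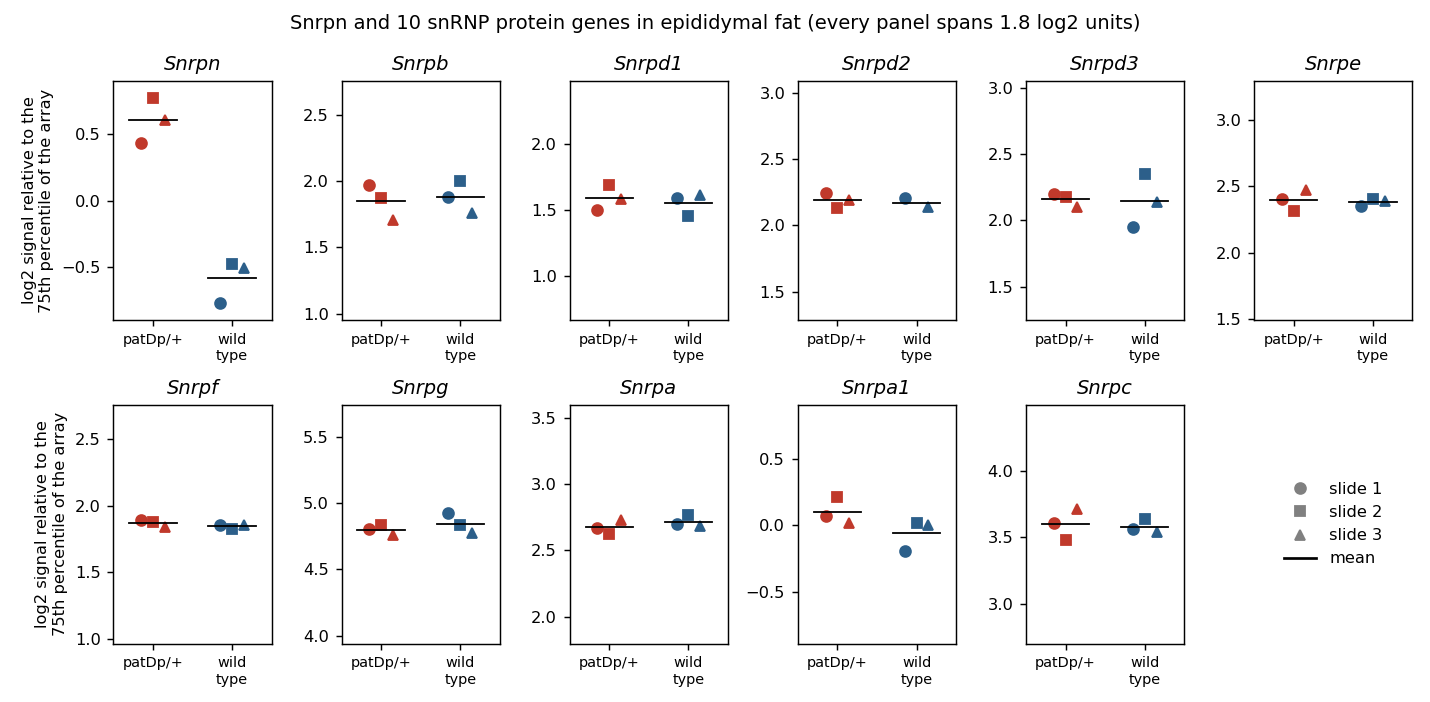
Signal of Snrpn and of the 10 snRNP protein genes on each array, as log2 relative to the 75th percentile of the array, with patDp/+ animals in red and wild type animals in blue, a symbol per slide and a line at the group mean. Every panel spans the same height, so the 2.28-fold gap of Snrpn can be compared by eye with the groups of the other genes. These overlap except for Snrpa1, whose groups are only just separate. Snrpd2 has 2 wild type points.

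Snrpb, which encodes SmB, is the member most like Snrpn. It read 1.97, 1.87 and 1.71 in patDp/+ replicates 1, 2 and 3, against 1.88, 1.996 and 1.76 in wild type replicates 1, 2 and 3. The groups overlapped over nearly their whole range. The log2 difference was -0.03 ± 0.10 (SE, n = 3 each), or 0.979-fold with a 95% interval of 0.821 to 1.17 and a limma adjusted p of 0.987. Within slides 1, 2 and 3 it was 0.09, -0.13 and -0.05. Snrpb has 1 probe on the array, so no other probe bears on this value.

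Snrpd1, Snrpd2 and Snrpd3 encode the D proteins of the ring. SmD1 and SmD2 enter the ring as a pair, and SmD3 enters together with SmB or SmN. Snrpd1 (chr18:10626889-10626948) read 1.501, 1.68 and 1.58 in patDp/+ replicates 1, 2 and 3, against 1.59, 1.46 and 1.61 in wild type replicates 1, 2 and 3. The groups overlapped, and the log2 difference was 0.04 ± 0.09 (SE, n = 3 each). A further Snrpd1 probe was well above background on 2 arrays and was not tested.

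Snrpd2 (chr7:19735208-19736590) read 2.25, 2.13 and 2.19 in patDp/+ replicates 1, 2 and 3, against 2.20 and 2.14 in wild type replicates 1 and 3. Its spot on wild type replicate 2 was marked as an outlier by the scanner software and left out, so the difference of 0.02 ± 0.09 (SE, n = 3 patDp/+ and 2 wild type) rests on 5 arrays. The groups overlapped. With that spot kept, the array read 0.57, below the 2.13 to 2.24 of the others, and the difference became 0.55 with a limma adjusted p of 0.930. The authors' deposited table holds 9.4997 for the same array and 12.0 to 12.1 for the others, and the difference there was 0.82 with a limma adjusted p of 0.969.

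Snrpd3 was read by 3 probes at distances of a few kilobases on chromosome 10. The brightest probe (chr10:74998027-74998086) read 2.20, 2.18 and 2.10 in patDp/+ replicates 1, 2 and 3, against 1.95, 2.35 and 2.14 in wild type replicates 1, 2 and 3. The patDp/+ values fell inside the wild type range, and the log2 difference was 0.01 ± 0.12 (SE, n = 3 each). The dimmer probe shown above read 0.33, 0.37 and 0.38 in patDp/+ fat against 0.05, 0.33 and 0.31 in wild type fat, with a difference of 0.13 ± 0.10 (SE). Wild type replicate 1 was the lowest array for both probes. The third probe differed by 0.03 ± 0.11 (SE).

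Snrpe, Snrpf and Snrpg encode the E, F and G proteins, which join the ring as a preformed trimer. Snrpe read 2.40, 2.32 and 2.47 in patDp/+ replicates 1, 2 and 3, against 2.35, 2.40 and 2.39 in wild type replicates 1, 2 and 3. The log2 difference was 0.02 ± 0.07 (SE, n = 3 each), and the wild type arrays lay inside the patDp/+ range. Snrpf varied least of the 10 members, with 1.90, 1.88 and 1.84 in patDp/+ fat against 1.85, 1.83 and 1.86 in wild type fat. Its brighter probe differed by 0.02 ± 0.07 (SE) and its other probe by -0.02 ± 0.09 (SE). Snrpg (chr6:86328764-86328823) had the brightest probe of the 10 and read 4.80, 4.84 and 4.76 in patDp/+ fat against 4.92, 4.83 and 4.78 in wild type fat. Its groups overlapped, with a difference of -0.04 ± 0.08 (SE), and no member probe was saturated on any array.

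**Figure D2:**
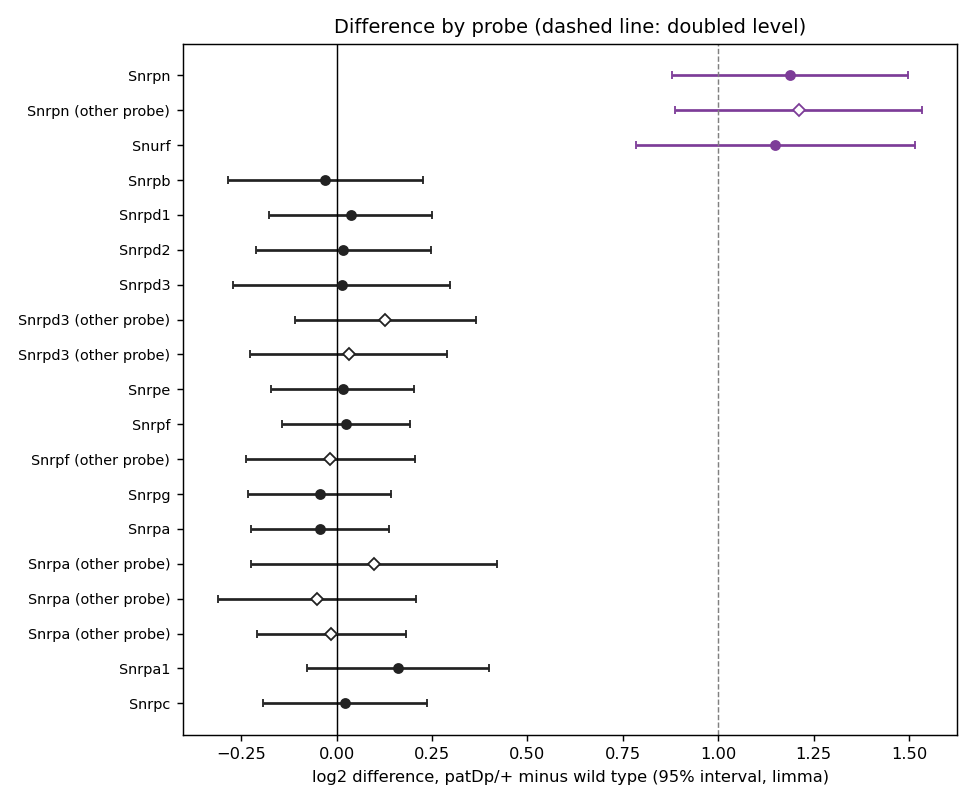
Log2 difference, patDp/+ minus wild type, with the 95% interval of limma, for each tested probe of Snrpn, Snurf and the 10 snRNP protein genes. Filled circles are the brightest probe of a gene and open diamonds its other probes. The 3 probes of Snrpn and Snurf sit near the dashed line of a doubled level, and all 16 member probes sit near 0 with intervals that end below 0.5. The Snrpd2 probe is drawn without its marked spot on wild type replicate 2.

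Snrpa and Snrpc encode the A and C proteins particular to the U1 snRNP, which recognises the 5′ splice site. The brightest of the 4 Snrpa probes (chr7:27972021-27972080) read 2.67, 2.63 and 2.73 in patDp/+ replicates 1, 2 and 3, against 2.70, 2.77 and 2.68 in wild type replicates 1, 2 and 3. The groups overlapped, with a log2 difference of -0.04 ± 0.07 (SE, n = 3 each), and the other Snrpa probes differed by -0.05 ± 0.11, 0.10 ± 0.13 and -0.01 ± 0.08 (SE). Snrpc (chr17:27988766-27988825) read 3.61, 3.48 and 3.71 in patDp/+ fat against 3.56, 3.64 and 3.54 in wild type fat. Its difference was 0.02 ± 0.09 (SE, n = 3 each), and the wild type arrays lay inside the patDp/+ range.

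Snrpa1 encodes the A' protein of the U2 snRNP, which binds U2 snRNA together with the B'' protein. It had the highest difference of the 10 and did not pass the test. It read 0.07, 0.21 and 0.02 in patDp/+ replicates 1, 2 and 3, against -0.20, 0.02 and -0.001 in wild type replicates 1, 2 and 3. All patDp/+ arrays lay above all wild type arrays, but patDp/+ replicate 3 (0.0164) was only just above wild type replicate 2 (0.0157). That margin is far smaller than the spread within either group. The log2 difference was 0.16 ± 0.10 (SE, n = 3 each), or 1.12-fold with a 95% interval of 0.949 to 1.32 and a limma adjusted p of 0.905. It was higher in patDp/+ fat on each slide (0.27, 0.20 and 0.02). By their brightest probes this held for none of the 8 other members with a value on every slide. The dimmer Snrpd3 probe shown above was also higher on slides 1, 2 and 3 (0.27, 0.04 and 0.07). Snrpd2, with no value on slide 2, was higher on slides 1 and 3 (0.04 and 0.05). The Snrpa1 difference was 0.09 without wild type replicate 1.

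The members Snrpd2, Snrpa and Snrpa1 lie on the chromosome that carries the duplication. The measured end genes of the interval, Herc2 and Mkrn3, have their probes 6.08 Mb apart, between positions 63485047 and 69562792 of chromosome 7 (mm9). Snrpd2 and Snrpa are 43.7 and 35.5 Mb from that stretch and Snrpa1 lies 3.65 Mb beyond Mkrn3. Within 500 kb of the Snrpa1 probe 7 named genes were measured, with a median log2 difference of -0.02. The nearest, the proprotein convertase gene Pcsk6 at -19.1 kb, had -0.46 ± 0.08 (SE), and Selenos, the gene of a selenoprotein of the endoplasmic reticulum, at 19.6 kb on the other side had -0.02 ± 0.07 (SE). The chondroitin synthase gene Chsy1 at 104.4 kb had 0.66 ± 0.07 (SE), with 1.65, 1.63 and 1.63 in patDp/+ replicates 1, 2 and 3, against 1.046, 0.94 and 0.95 in wild type replicates 1, 2 and 3. Differences of both signs thus lie beside Snrpa1, and none of the 7 passed at an adjusted p of 0.05 (limma, 0.345 for Chsy1 and 0.739 for Pcsk6). The unadjusted limma p was 7.15e-05 for Chsy1, beside 7.19e-05 for Snrpn, and 0.00118 for Pcsk6. At an unadjusted p under 0.05, 1 of the 7 was higher and 1 lower (2.68% and 2.92% of all features). The groups of Chsy1, Pcsk6 and Tarsl2 did not overlap, as for 11.1% of all features. The remaining 4, Lrrk1, Aldh1a3, Tm2d3 and Tarsl2, had 0.03, -0.09, -0.02 and -0.19.

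**Figure D3:**
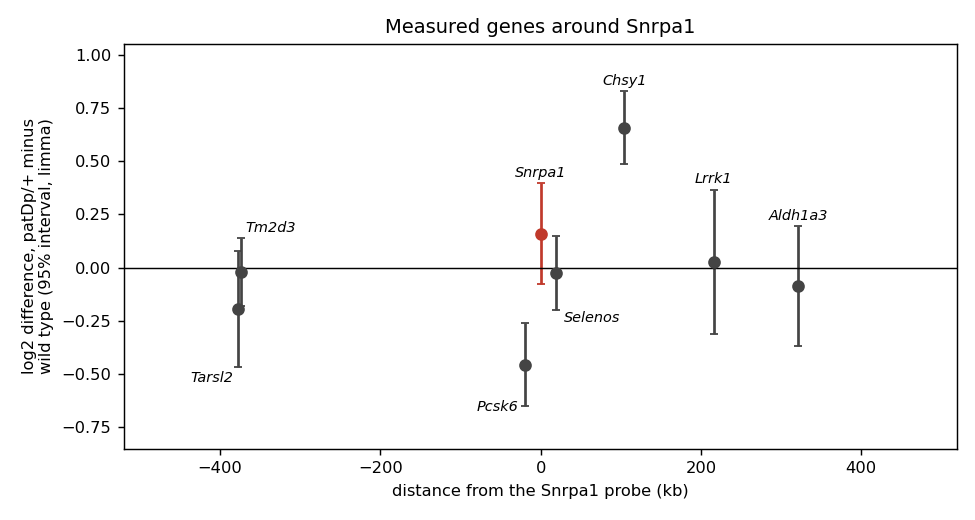
Log2 difference, patDp/+ minus wild type, with the 95% interval of limma, for Snrpa1 (red) and the 7 named genes measured within 500 kb of its probe, by distance in kb. Chsy1 sits at 0.66 and Pcsk6 at -0.46, on either side of the Snrpa1 value of 0.16, and the intervals of the other genes cross 0.

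The change of each member was then set against that of Snrpn within the same array. The log2 of Snrpn minus the log2 of the member was higher in every patDp/+ array than in every wild type array for all 10 members. The same held for 94.9% of all features other than Snrpn, so this count is near the background and is no result about the members. For Snrpd2 this did not hold in the deposited table or with the marked spot kept, where the groups overlapped and the gaps were 0.18 and 0.64. The gap between genotypes was smallest for Snrpa1, at 1.03 ± 0.08 (SE, 95% interval 0.818 to 1.24), and largest for Snrpg, at 1.23 ± 0.16 (SE, 95% interval 0.786 to 1.68). For Snrpb it was 1.22 ± 0.18 (SE, 95% interval 0.709 to 1.73). These SEs and intervals come from the spread of the per-array values. The exact permutation p was 0.1 (two-sided) for each of the 10, which is the smallest these numbers of arrays allow. The 10 gaps share the Snrpn values and are not independent of one another.

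**Figure D4:**
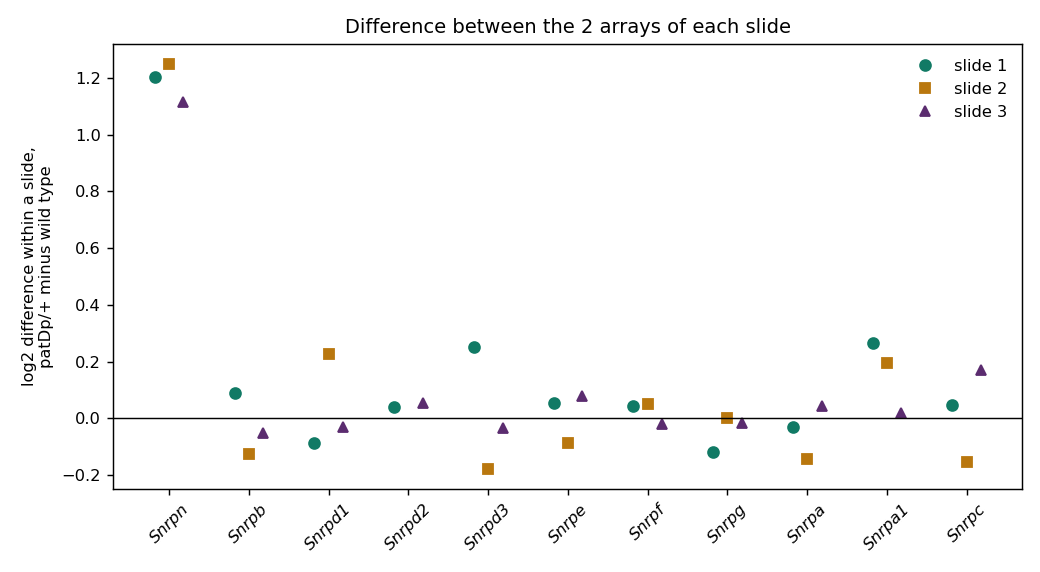
Log2 difference between the patDp/+ and the wild type array of each of the 3 slides, for Snrpn and the 10 snRNP protein genes. Snrpn lies between 1.11 and 1.25 on all slides, while the members scatter around 0, with Snrpa1 above 0 on each slide. Snrpd2 has no value for slide 2.

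The members varied little over the arrays, whatever the genotype. Snrpd2 enters this paragraph with 5 arrays, as its marked spot was left out. The members' SD over the arrays was 0.02 (Snrpf) to 0.13 (Snrpd3 and Snrpa1), and all 10 were below the median of 0.15 over all features. For Snrpd2 the low SD depends on that omission, since the marked spot read 0.57 against 2.13 to 2.24 on the other arrays. Among the 7525 features with mean signals in the range of the members the median SD was 0.11, and 7 of the 10 were below it. On slides 1, 2 and 3 the patDp/+ array was the higher one for 7 of 10, 4 of 9 and 5 of 10 members, with median differences of 0.05, -0.09 and 0.0001. The members did not vary as 1 group. Pearson's r between their profiles over the arrays, given as a description, had a median of -0.04 over 45 pairs and ranged from -0.93 to 0.94. Among the named genes whose 6 values were most like those of Snrpb were Ftsj3, Bub3, Arc and 5031434C07Rik, with r of 0.978 to 0.988, and neither Snrpn (r of -0.18) nor any other member was near them, with Snrpg first among the members at r of 0.50 and rank 2277.

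The rest of the splicing machinery was described through 5 further lists with 75 genes, all of which were measured. None passed at an adjusted p of 0.05 in limma, 1 was higher and 1 lower at an unadjusted p under 0.05 (2.68% and 2.92% of all features), and the median log2 difference was -0.01. Among 19 other snRNP proteins the median was -0.03. Snrnp25, a protein of the minor spliceosome, read 2.27, 2.14 and 2.32 in patDp/+ replicates 1, 2 and 3, against 1.82, 2.02 and 1.998 in wild type replicates 1, 2 and 3. Its groups did not overlap, with a difference of 0.29 ± 0.09 (SE, n = 3 each) and a limma adjusted p of 0.872. Snrnp48, also of the minor spliceosome, had -0.18 ± 0.10 and the cyclophilin Ppih of the tri-snRNP 0.12 ± 0.07 (SE).

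The 12 genes of the SF3 complexes, which bind the branch point region within the U2 snRNP, had a median of -0.03. Sf3b5 (0.20 ± 0.10, SE), Sf3b6 (0.14 ± 0.07) and Ddx42 (-0.09 ± 0.07) had the smallest p among them. The 10 Sm-like (Lsm) genes encode proteins that form or join related rings, found on other small RNAs and in mRNA decay. Their median was 0.05, with 8 positive and 0 at an unadjusted p under 0.05. Lsm7, Lsm11 and Lsm4 had 0.09 ± 0.07, 0.15 ± 0.15 and 0.05 ± 0.07 (SE).

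The 18 genes that assemble and import snRNPs, such as the survival motor neuron gene Smn1 and the arginine methyltransferase gene Prmt5, which prepare the Sm ring, had a median of -0.03, with 7 positive and 11 negative. Gemin7 (0.12 ± 0.07, SE) and Gemin8 (-0.13 ± 0.08), both of the SMN complex, differed in sign, and Ddx20, its helicase, had -0.10 ± 0.07. None of the 18 reached an unadjusted p under 0.05 in limma. Among 16 splicing regulators, with a median of -0.01, the RNA-binding protein gene Hnrnpa2b1 read 4.20, 4.10 and 4.09 in patDp/+ replicates 1, 2 and 3, against 4.44, 4.33 and 4.38 in wild type replicates 1, 2 and 3. It was lower on every slide, with a difference of -0.26 ± 0.08 (SE, n = 3 each) and a limma adjusted p of 0.872. The kinase gene Srpk1 had -0.12 ± 0.08 and the branch point binding factor Sf1 -0.11 ± 0.09 (SE).

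**Figure D5:**
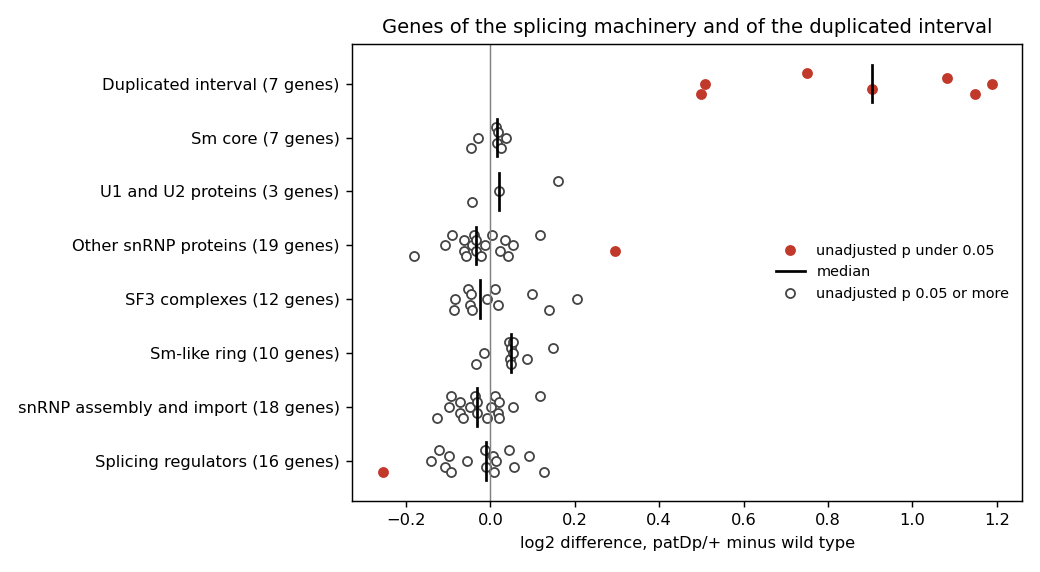
Log2 difference, patDp/+ minus wild type, of each measured gene of the duplicated interval, the 10 snRNP protein genes in 2 rows and 5 further lists of splicing genes, with a bar at the median of each list. Red points have an unadjusted limma p under 0.05, which holds for the 7 interval genes, Snrnp25 and Hnrnpa2b1, and the medians of the splicing lists lie between -0.03 and 0.05.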

How the data were processed

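The scanner files carry spot intensity from Feature Extraction 9.5.1.1, per the file headers. The processed intensity has the background removed and is detrended within its array, with no scaling between arrays, per the file headers. The mean and local background intensity per spot are as scanned, per the file headers. The authors also deposited a table of quantile-normalized log2 values of the same arrays. How its background was corrected is unknown here, and it served as an alternative. Agilent Feature Extraction 9.5 and limma 3.18.2 appear in the submitters' processing notes without a role. The source name of every sample says wild type and replicate 1, so groups came from the titles.

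Spots marked as outliers were left out (93 to 167 per array), replicate spots were averaged, and the 75th percentile of the array was subtracted from the log2 values. Probes marked well above background on 3 or more arrays were kept (27975 of 41174), and a gene was represented by its brightest kept probe. Gene names are those of the scanner files, brought up to date for 27050 probes by accession with the RefSeq gene table of GRCm38.p6, from which no coordinates were taken. The place of a probe within its transcript (exon, UTR) was not analysed here.

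The 6 arrays were fitted with limma 3.58.1 (R 4.3.3) by genotype, without covariates (two-sided, Benjamini-Hochberg, threshold 0.05), after a test on simulated data. The SEs of single genes or probes are limma's, and those of single probes come from a fit over all kept probes. The number of arrays limits the precision. The members and lists were chosen with earlier results of these data known. The genes named are all members and interval genes, the 3 with the smallest p of each other list, chromosome 7 neighbours and the 5 most like Snrpb, of which 1 is not reported here. Hybridisations of animals with 1 number share a slide. Their deviations from the group means correlated at 0.11, -0.09 and -0.04, so the numbers were not taken to pair the animals. Alternatives were other background corrections, normalizations, filters, probe summaries and variance models, the slide as a block, and leaving out each array. Scaling to the median gene and keeping outlier spots were added after the data were seen.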

Additional observations from a re-analysis of the deposited data

How the results depend on the processing

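No member passed at an unadjusted p under 0.05 in limma under any of the 19 alternatives, in those where it was tested, and Snrpn was 1.01 to 1.27 higher on the log2 scale in all of them. With the replicate number, and so the slide, as a block, Snrpn differed by 1.19, the members' median was 0.02, 0 members and 982 features had an unadjusted p under 0.05, and no call after adjustment changed. Normexp background correction, which put the median of all features at 0.07 and 63.7% of the features at an unadjusted p under 0.05 on the higher side (47.8% in the reported fit), gave a members' median of -0.0726. It turned the sign of Snrpd1 (-0.0326), Snrpd2 (-0.0953), Snrpd3 (-0.0701), Snrpe (-0.0735), Snrpf (-0.0485) and Snrpc (-0.0718), and left 1 gene of the 5 splicing lists at an unadjusted p under 0.05. Quantile normalization turned Snrpe (-0.000132) and array weights turned Snrpb (0.0589). The 5 lists held 0 such genes with probes averaged and 4 with array weights, where 1888 features stood against 1075 in the reported fit. Leaving out 1 array at a time gave 755 (without patDp/+ replicate 2) to 1788 (without patDp/+ replicate 3) such features, 1 to 2 list genes, and differences of -0.0901 to 0.0405 for Snrpb, -0.0112 to 0.0805 for Snrpd1, -0.0150 to 0.0498 for Snrpd2, -0.0863 to 0.116 for Snrpd3, -0.0211 to 0.0548 for Snrpe and -0.0349 to 0.0801 for Snrpc. The sign of these differences is thus not settled by 6 arrays. The gap to Snrpn kept its direction for all 10 members, and the groups overlapped for Snrpd2 in the 2 settings that use its marked spot. Snrpd2 was not tested with the filter on all 6 arrays. The causes were not tested otherwise.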

Other observations

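The chromosome 7 surroundings of the other 2 members were described in the same way. Within 500 kb of Snrpd2, in a gene-dense stretch, 35 named genes were measured with a median log2 difference of 0.08 and a range of -0.41 (Exoc3l2) to 0.67 (Fosb). Fosb had an SE of 0.42, overlapping groups and an unadjusted p above 0.05 in limma. Eml2 (0.27 ± 0.11, SE) and Rtn2 (0.36 ± 0.13) were higher at an unadjusted p under 0.05, and Exoc3l2 (-0.41 ± 0.15) was lower. Within 500 kb of Snrpa, 20 named genes had a median of 0.03 and a range of -0.98 (Cyp2f2) to 0.27 (Rab4b). Cyp2f2 (-0.98 ± 0.44, SE) and Mia (-0.79 ± 0.88) had the largest differences, with overlapping groups and an unadjusted p above 0.05. Rab4b, the gene of a small GTPase of endosomes at -13.3 kb from the Snrpa probe, had 0.27 ± 0.08 (SE), and Sertad1 had 0.24 ± 0.09, both with an unadjusted p under 0.05. Counts at an unadjusted p under 0.05 were thus 2 higher and 1 lower of 35, and 2 higher and 0 lower of 20. Over all features 2.68% were higher and 2.92% lower. None of these neighbours passed at an adjusted p of 0.05 in limma.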
